A study of Homo sapiens with 16 samples.

Results

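The overexpression arm compared SW480 cells carrying an Ajuba lentivirus, labelled Ajuba OE, with their vector line, labelled Control. Each line had 3 RNA-seq libraries, so the arm holds 6 of the 16 samples of the series. The other 10 libraries came from untransduced cells (Parental, 2), a scrambled hairpin line (shScrambled, 2) and a pair of knockdown lines (shAjuba1 and shAjuba2, 3 each). SW480 is an established human colon adenocarcinoma line with a truncated APC protein, in which Wnt signalling is constitutively active. The Ajuba OE construct drives Ajuba with a C-terminal FLAG and HA tag from the CMV promoter and carries a puromycin resistance gene after an internal ribosome entry site. Control cells received that construct with the Ajuba sequence cut out. Both were selected with puromycin as stable lines, no further treatment or time course is given, and each is a single line, so a difference between the lines cannot be told apart from a difference between the results of 2 transductions. Nothing in the labels places the libraries of a line in separate cultures, and p-values therefore measure the spread between these libraries, which may be technical.

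Ajuba is a LIM-domain scaffold that moves between cell junctions and the nucleus. It binds LATS kinases of the Hippo pathway, which hold back the co-activators YAP and TAZ, it meets alpha-catenin at E-cadherin junctions, and it acts as a co-repressor partner of SNAIL. YAP and TAZ reach DNA through TEAD factors and switch on secreted matricellular genes such as CCN1 and CCN2. The comparison asks which transcripts differ when the level of this scaffold is raised.

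AJUBA itself (ENSG00000129474, chromosome 14, 22971177 to 22982551, minus strand, hg38) checked the labels. Levels here are CPM, that is counts scaled to library size, after TMM normalisation. AJUBA stood at 573, 492 and 595 CPM in Ajuba OE replicates 1, 2 and 3 and at 89.9, 99.8 and 88.6 CPM in Control. All Ajuba OE libraries were above all Control libraries, with a 5.90-fold difference (log2 fold change 2.56, SE 0.115, edgeR quasi-likelihood test, Benjamini-Hochberg adjusted p 7.69e-05). Parental lay at 89.2 and 92.6 CPM and shScrambled at 82.5 and 81.1 CPM, close to Control. Counts over the gene do not separate the transgene's message from the cell's own. Of the 41 other genes tested within 1 Mb of AJUBA, 1 passed the test: DHRS2, a short-chain dehydrogenase gene, at 76.4, 72.3 and 74.5 CPM in Ajuba OE and 51.4, 53.9 and 55.7 CPM in Control (log2 fold change 0.45). DHRS2 lost that call in 5 of the 6 fits that left out 1 library, and against Parental.

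**Figure D1:**
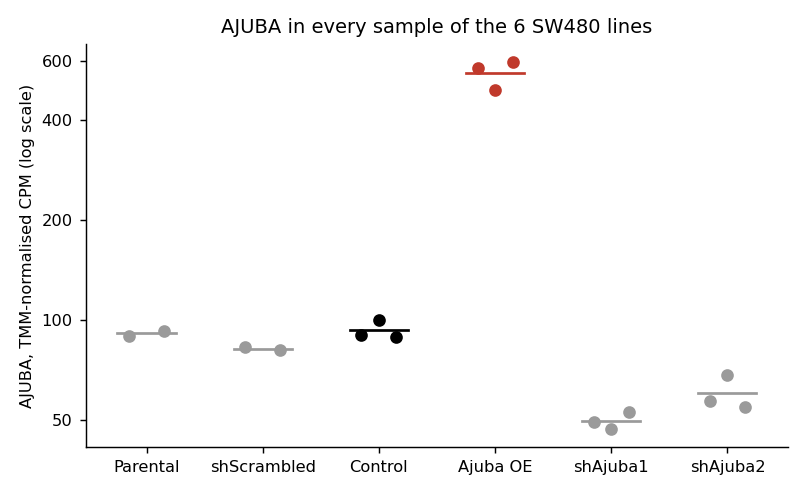
AJUBA in TMM-normalised CPM (log axis) for each of the 16 samples, with points as libraries and bars as line means. The 3 Ajuba OE libraries sit between 492 and 595 CPM, above the 7 Control, Parental and shScrambled libraries, which sit between 81.1 and 99.8 CPM, and the knockdown libraries lie lowest.

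Total counts per library ranged from 39771043 to 69684675 in Ajuba OE and from 34334603 to 49021568 in Control. Replicate 2 of both lines stood apart in RNA make-up. Mitochondrially encoded mRNA took 11.3% of counts in Ajuba OE replicate 2 and 11.4% in Control replicate 2, against 6.95% to 8.38% in the other 4 libraries, and ribosomal protein mRNA took 2.32% and 1.84% against 3.14% to 4.65%. For this reason each gene was also tested without replicate 2 of both lines. MALAT1 and NEAT1 together took 0.863% of counts in Ajuba OE replicate 1 and 1.72% to 2.31% in the other 5. A chromosome 21 lncRNA without a symbol, ENSG00000281181, ran from 33.9 to 287.9 CPM in Ajuba OE and from 389.9 to 10960 CPM in Control, a spread in which it did not pass the test. Colon epithelial markers were expressed in both lines: all 10 could be tested and 8 reached 1 CPM. Their summed level, mostly KRT8 and KRT18, was 6160 to 7330 CPM in Ajuba OE and 4840 to 5940 CPM in Control. The markers did not all move one way: 8 of the 10 had a log2 fold change above 0, and the lowest was -1.23. The markers of other cell types were low: fibroblast markers summed to 6.61 to 11.3 CPM against 15.7 to 24.5 CPM with DCN at 0, leukocyte markers to 6.21 to 8.75 against 6.50 to 7.48 CPM with FCGR3A and MS4A1 at 0, and endothelial markers to 4.91 to 5.61 against 5.67 to 7.07 CPM with EMCN at 0.

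Across the transcriptome 21140 genes were tested and 1147 passed an adjusted p of 0.05, or 5.43% of those tested. Of these, 506 were higher (2.39%) and 641 lower (3.03%) in Ajuba OE. With scaling by library size alone the split was 360 higher and 748 lower. The lower genes moved further: their median log2 fold change was -1.19, against 0.81 for the higher genes, and 70 genes fell by at least 3 on the log2 scale while 7 rose by as much. All 1147 had no overlap between the 3 Ajuba OE and the 3 Control libraries, which held for 25.2% of all genes tested. Without replicate 2 of both lines 1016 of the 1147 (4.81% of all tested) passed in the direction first seen, 462 higher and 554 lower, none changed sign, and 685 more genes passed (1701 calls, 8.18% of that test). Without replicate 1 of both lines 262 genes passed, and without replicate 3 of both lines 94. Leaving out 1 library at a time gave 412 to 988 calls, with the lowest count without Control replicate 3, and 395 genes passed all 6 of these fits. The 15 higher and 15 lower protein-coding genes with the smallest adjusted p in their direction were among those 395.

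**Figure D2:**
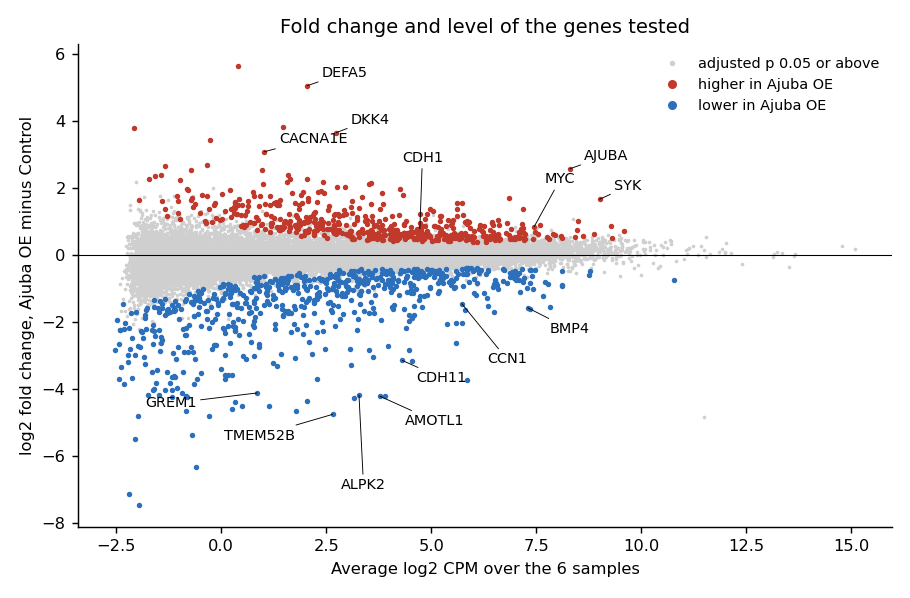
Log2 fold change (Ajuba OE minus Control) against average log2 CPM for the 21140 genes tested, with genes passing an adjusted p of 0.05 in red (506 higher) and blue (641 lower). Lower genes reach further from 0 than higher ones, and AJUBA and SYK are the strongly raised genes at high level.

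The genes with the smallest adjusted p among the higher set spanned secreted, membrane and signalling proteins. DEFA5, an antimicrobial alpha-defensin of intestinal Paneth cells, was at 9.35, 6.19 and 8.83 CPM in Ajuba OE and at 0.175, 0.263 and 0.271 CPM in Control. That is a log2 fold change of 5.04 (SE 0.252, adjusted p 0.00011). Parental at 1.73 and 1.47 CPM and shScrambled at 0.949 and 1.01 CPM lay between both lines. Its chromosome 8 neighbour DEFA6, the other Paneth cell alpha-defensin and named here after its values were seen, was at 3.55, 1.55 and 2.27 CPM against 0.0292, 0.0405 and 0.0677 CPM. SYK, a cytoplasmic tyrosine kinase, was among the most abundant raised genes, at 825, 771 and 809 CPM in Ajuba OE and 268, 237 and 256 CPM in Control (log2 fold change 1.65, SE 0.101, adjusted p 0.000204). SYK differed among the control lines too, with 221 and 215 CPM in Parental but 37.1 and 36.5 CPM in shScrambled.

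CACNA1E, the pore subunit of a voltage-gated calcium channel, rose to 3.99, 3.44 and 3.41 CPM from 0.439, 0.405 and 0.429 CPM (log2 fold change 3.07). Regulators of the small GTPase CDC42 rose with it. DOCK11 was at 33.6, 29.5 and 32.0 CPM against 10.0, 8.57 and 9.0 CPM, and FGD5 at 70.7, 76.5 and 70.3 CPM against 26.6, 27.5 and 29.3 CPM. The glucose transporter gene SLC5A1 was 5.21-fold higher, the flippase gene ATP9A 2.56-fold, the neurexophilin gene NXPH3 3.31-fold, the keratin gene KRT75 5.73-fold, DEPDC7 2.23-fold and the chemokine gene CCL24 3.42-fold. Of matrix proteins, nephronectin (NPNT) was 3.72-fold higher and tenascin C (TNC) 3.58-fold higher. TNC reached 23.3, 20.4 and 25.2 CPM in Ajuba OE, but shScrambled held 20.4 and 18.8 CPM. The cyclin D2 gene CCND2 went further in that direction: Control had 4.56, 4.98 and 3.59 CPM and Ajuba OE 17.5, 19.6 and 21.8 CPM, while Parental had 19.1 and 17.5 CPM and shScrambled 34.7 and 32.9 CPM. For CCND2 the Control line was thus the low one among the lines, and the gene did not pass against Parental.

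The largest rises at a level of at least 2 average log2 CPM were those of DEFA5, AJUBA, DKK4, SPTSSB and KRT6B. DKK4, a secreted Wnt antagonist that is itself a Wnt target, was at 16.6, 8.32 and 12.6 CPM against 1.34, 0.668 and 1.01 CPM. Parental (3.73 and 5.47 CPM) and shScrambled (2.85 and 3.2 CPM) lay between the lines. The log2 fold change of DKK4 was 3.64 against Control and 1.43 against Parental. SPTSSB, a small subunit of serine palmitoyltransferase, was 4.79-fold higher. KRT6B was 4.53-fold higher and did not pass against Parental, where 1 library held 5.69 CPM, and as a near copy of KRT6A and KRT6C its count may be shared with them. Outside the protein-coding genes the leading calls were TRBC2, the T cell receptor beta constant segment, at 85.5, 68.7 and 89.5 CPM against 30.2, 23.9 and 28.2 CPM, LINC01451 (3.65-fold) and PROX1-AS1 (2.88-fold).

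Among the lower genes the separation was wider. ALPK2, an alpha-kinase gene on chromosome 18, had the smallest adjusted p of all genes, at 1.09, 1.07 and 0.951 CPM in Ajuba OE and 18.5, 19.4 and 18.4 CPM in Control (log2 fold change -4.19, SE 0.120, adjusted p 2.4e-05). CDH11, a cadherin of mesenchymal cells, fell to 4.38, 4.11 and 3.8 CPM from 38.6, 35.0 and 34.9 CPM (log2 fold change -3.16, SE 0.107, adjusted p 4.26e-05). Parental and shScrambled held both genes at or near the level of Control or higher: 27.4, 26.0, 17.5 and 18.7 CPM for ALPK2 and 68.1, 68.5, 31.4 and 28.3 CPM for CDH11. ZBED2, a zinc finger transcription factor gene, was at 5.40, 5.15 and 6.00 CPM against 41.2, 36.8 and 39.8 CPM, and GDA, which encodes guanine deaminase, at 13.8, 12.6 and 14.4 CPM against 91.9, 80.0 and 81.5 CPM.

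GREM1, a secreted BMP antagonist, was close to silent in Ajuba OE, with 0.209, 0.200 and 0.185 CPM against 3.57, 3.56 and 3.34 CPM in Control. CAVIN2, a coat protein gene of caveolae, was 22.8-fold lower, BASP1, a membrane-bound signalling protein gene, 22.7-fold lower and TCIM 20.5-fold lower. F13A1 (coagulation factor XIII A chain) was 7.07-fold lower, the membrane ubiquitin ligase gene MARCHF4 6.62-fold, the semaphorin gene SEMA5A 9.85-fold, and the transcriptional regulators DACH1 and TRPS1 were 7.10-fold and 8.53-fold lower. Each of the 15 leading lower genes lay below all 7 Control, Parental and shScrambled libraries. Over all calls the Ajuba OE libraries lay outside those 7 for 1011 of 1147 genes, against 12.7% of all genes tested (2679 genes). These shares are not alike, since every call was already apart from the 3 Control libraries. Over all genes tested 5318 were apart from Control, and the 2679 are among them. For 145 calls (12.6%), 99 of them higher, Parental and shScrambled lay on the side of Ajuba OE with respect to every Control library. The same share over all genes tested was not computed.

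**Figure D3:**
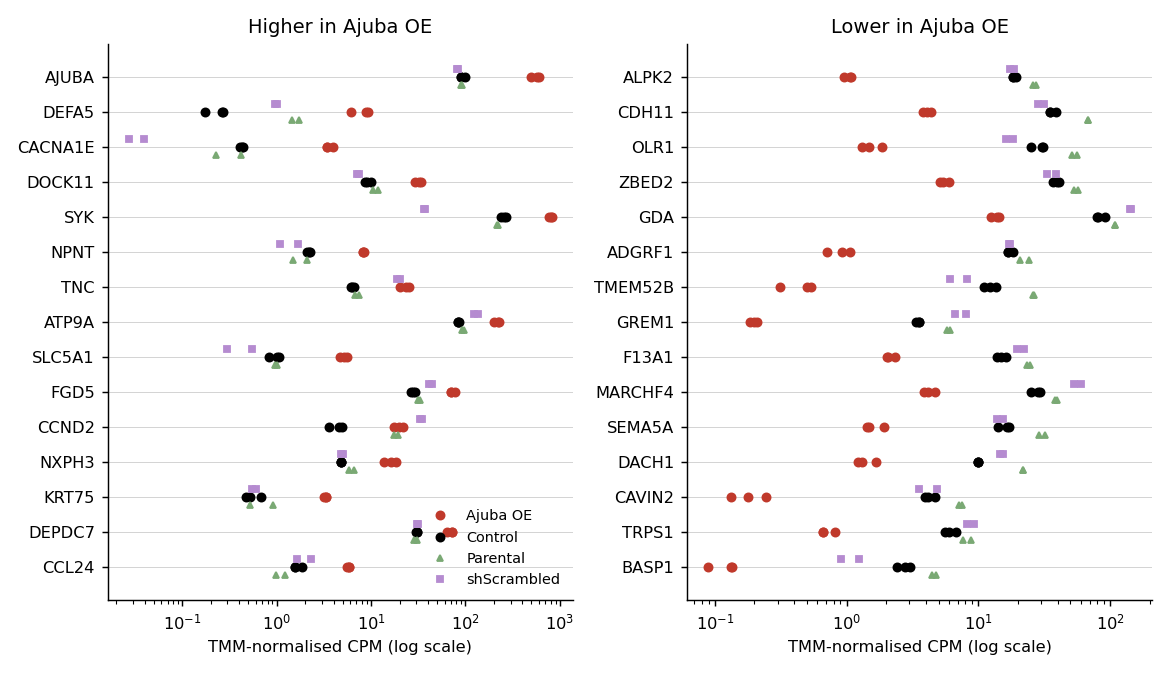
TMM-normalised CPM (log axis) of the 15 higher and 15 lower protein-coding genes with the smallest adjusted p, with red circles for Ajuba OE, black circles for Control, green triangles for Parental and purple squares for shScrambled. Ajuba OE lies below every other point for all 15 lower genes, while for CCND2 and TNC shScrambled reaches or exceeds Ajuba OE.

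Several calls lay side by side on a chromosome. Of 937 called protein-coding genes with a symbol of their own, 222 (23.7%) stood in 97 runs of neighbouring tested genes called in one direction, 18 of them with 3 or more genes. The share that calls placed at random would give was not computed. The longest run had 6 genes, all lower, on chromosome 11 from 73951026 to 74311640 (DNAJB13, UCP2, UCP3, C2CD3, PPME1 and P4HA3). On chromosome 12 OLR1, a receptor for oxidised lipoprotein, and TMEM52B, whose gene bodies overlap on opposite strands, fell with CLEC2D and GABARAPL1. OLR1 was at 1.85, 1.31 and 1.48 CPM against 31.1, 25.0 and 30.7 CPM, and TMEM52B at 0.538, 0.311 and 0.502 CPM against 12.2, 11.1 and 13.7 CPM. On chromosome 6 the adhesion receptor genes ADGRF1 and ADGRF5 fell together, ADGRF1 from 18.4, 16.7 and 16.9 CPM to 0.927, 0.710 and 1.06 CPM. On chromosome 16 the genes of P-cadherin and E-cadherin, CDH3 and CDH1, rose together, and on chromosome 2 the collagen IV genes COL4A3 and COL4A4 fell together. LINC02700, at 94638045 to 94652884 on chromosome 11, fell with the nearby gene AMOTL1, at 94706431 to 94876748: it was at 0.224, 0.333 and 0.264 CPM against 7.60, 7.11 and 5.66 CPM.

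Counts in this and the following lists are read beside the 2.39% of all genes tested that were called higher and the 3.03% called lower. Losses in fits with 1 library left out are given only for named genes, up to 4 calls per list. Other called members, such as LATS2, ARHGEF17, CRIM1 and AXL, are given without that check. The calls among Hippo pathway genes and targets of YAP and TAZ were all falls. Of 26 kinases, adaptors and effectors tested, 5 fell and 0 rose, with a median log2 fold change of -0.14 beside -0.015 over all genes, and all 5 passed without replicate 2. AMOTL1, an angiomotin-like protein that binds YAP at junctions, fell from 28.8, 25.2 and 25.5 CPM to 1.44, 0.954 and 1.93 CPM (log2 fold change -4.23, SE 0.228, adjusted p 0.000135). FRMD6, an upstream activator of the pathway, was at 22.6, 18.2 and 18.0 CPM against 89.6, 68.9 and 78.9 CPM. The phosphatase gene PTPN14 and AMOTL2, both YAP-binding, fell by 1.02 and 0.83 on the log2 scale, and the kinase gene LATS2 by 0.44. YAP1 itself was at 422, 339 and 405 CPM against 400, 309 and 343 CPM and did not pass.

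Of 22 targets of YAP and TAZ tested, 11 fell and 0 rose, with a median of -0.47. CCN1 was at 31.3, 23.1 and 32.4 CPM in Ajuba OE and 82.6, 78.2 and 77.3 CPM in Control (log2 fold change -1.47, SE 0.136, adjusted p 0.00115), and CCN2 at 7.13, 5.50 and 7.21 CPM against 18.6, 18.4 and 15.8 CPM (log2 fold change -1.43). NT5E, which encodes a surface nucleotidase, was at 9.12, 9.32 and 9.35 CPM against 28.1, 24.2 and 25.9 CPM. The cytokine gene TGFB2 fell by 1.34, ARHGEF17 by 1.80, CRIM1 by 1.00 and the receptor kinase gene AXL by 0.84. PTPN14, AMOTL2 and LATS2 stand in both lists. RBMS3 fell by 3.69 but was the 1 of the 11 that did not pass without replicate 2.

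TEAD factors bind the letters GGAATG, and the 250 bases before the annotated start were searched for them on both strands in the RefSeq promoter table (GRCh38.p14). Of 35116 windows in the table, 11.9% held the motif. A window was matched for 16 of the 22 targets, and 8 of the 16 held the motif (8 of their 18 windows), among them 5 of the 8 matched targets that fell. CCN2 held 3 matches, a number found in 0.0826% of all windows. The windows of CCN2, PTPN14 and TGFB2, 3 of the genes that fell, are shown with the motif in capitals on whichever strand it was read. They cover chr6:131951373-131951622 (minus strand) for CCN2, chr1:214551603-214551852 (minus strand) for PTPN14 and chr1:218345086-218345335 (plus strand) for TGFB2.
CCN2: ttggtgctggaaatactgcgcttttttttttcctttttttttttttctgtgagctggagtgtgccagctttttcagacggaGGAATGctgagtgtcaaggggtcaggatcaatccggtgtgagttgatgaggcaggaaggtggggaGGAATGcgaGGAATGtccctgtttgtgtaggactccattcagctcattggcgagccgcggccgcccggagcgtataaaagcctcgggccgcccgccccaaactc
PTPN14: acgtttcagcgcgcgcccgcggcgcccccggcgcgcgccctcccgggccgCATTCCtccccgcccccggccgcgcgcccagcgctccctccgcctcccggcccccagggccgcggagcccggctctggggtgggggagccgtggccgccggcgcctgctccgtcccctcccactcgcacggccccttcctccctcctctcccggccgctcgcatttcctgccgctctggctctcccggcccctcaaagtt
TGFB2: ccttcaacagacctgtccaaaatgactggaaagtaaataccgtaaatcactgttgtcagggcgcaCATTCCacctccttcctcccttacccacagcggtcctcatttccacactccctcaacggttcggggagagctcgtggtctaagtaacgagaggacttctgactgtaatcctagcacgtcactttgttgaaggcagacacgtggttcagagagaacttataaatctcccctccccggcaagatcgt
In CCN2 the matches begin 169, 104 and 95 bases before the start. In PTPN14 and TGFB2 the single match lies on the opposite strand, 200 and 185 bases before the start. The matches are letters in a window and no measure of binding.

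Cadherins moved both ways. Of 23 cadherin and catenin genes tested, 3 rose and 1 fell, and their median of 0.04 turned to -0.02 with scaling by library size alone. CDH1, the gene of E-cadherin, was at 36.4, 28.9 and 38.0 CPM against 21.5, 19.0 and 19.4 CPM (log2 fold change 0.77, SE 0.125, adjusted p 0.0132). It passed without replicate 2 but lost the call without Control replicate 3, Ajuba OE replicate 1 or Ajuba OE replicate 3, and against Parental. shScrambled held less CDH1 than any of these, 7.79 and 8.17 CPM. CDH3 was at 41.5, 38.2 and 40.0 CPM against 19.1, 18.6 and 18.8 CPM (log2 fold change 1.07, SE 0.0866, adjusted p 0.000714) and kept its call with each library left out. The desmocollin gene DSC2 had a log2 fold change of 1.00 and lost its call in 5 of the 6 fits with 1 library left out, and against Parental. shScrambled held 3.31 and 3.71 CPM of DSC2, beside 4.82, 3.71 and 3.99 CPM in Ajuba OE. CDH11, described above, was the member that fell. Around the transition from epithelial to mesenchymal cells, ZEB1, a repressor of CDH1, fell by 0.54, ESRP1, an epithelial splicing factor, rose by 0.57 and SNAI1 was at 7.18, 3.86 and 3.57 CPM against 1.84, 4.01 and 2.95 CPM and did not pass. The calls of ZEB1 and ESRP1 did not survive the loss of a single library, apart from Ajuba OE replicate 2 for ESRP1. ESRP1 did not pass against Parental either. Of 19 tight junction genes CLDN7 rose by 0.89 and the cingulin gene CGN fell by 0.78, both with calls lost in 5 of the 6 fits.

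Calls among Wnt targets were mainly rises. Of 26 feedback and beta-catenin target genes tested, 8 rose and 1 fell, with a median of 0.31, and all 9 passed without replicate 2. Besides DKK4, PROX1, a homeobox factor gene, was at 76.7, 80.8 and 74.8 CPM against 33.6, 32.1 and 34.9 CPM (log2 fold change 1.19, SE 0.0924, adjusted p 0.000605). ASCL2, a stem cell factor of the crypt, was at 49.1, 49.6 and 38.7 CPM against 16.8, 18.1 and 18.3 CPM, and TCF7, a partner of beta-catenin, at 94.0, 92.8 and 98.1 CPM against 50.0, 50.4 and 55.2 CPM. MYC was at 236, 200 and 256 CPM against 131, 123 and 130 CPM (log2 fold change 0.83, adjusted p 0.0058). KREMEN1, CEMIP and SP5 rose by 0.85, 0.73 and 0.70, and the antagonist gene DKK1 fell by 1.22. Of 30 Wnt ligands, receptors and inhibitors 2 rose and 4 fell: WNT5A was at 169, 147 and 162 CPM against 330, 271 and 268 CPM, the receptor genes FZD1, FZD2 and FZD7 fell by 0.75, 0.99 and 0.50, and SFRP5 and WNT9A rose by 0.60 and 0.63. FZD2 and SFRP5 each lost the call in 5 of the 6 fits with 1 library left out, and SFRP5 did not pass against Parental. Such fits are not given here for KREMEN1, CEMIP, SP5, DKK1, FZD7 and WNT9A.

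In the TGF-beta and BMP list 6 of 26 genes fell and 1 rose, with a median of -0.09. BMP4 was at 84.7, 83.3 and 75.3 CPM in Ajuba OE against 239, 241 and 242 CPM in Control (log2 fold change -1.59, SE 0.0905, adjusted p 0.000153), beside 332 and 324 CPM in Parental. GREM1, TGFB2, the co-receptor gene TGFBR3 (-0.94) and the latent binding protein genes LTBP1 (-1.07) and LTBP2 (-0.79) were the others that fell, and TGFBI rose by 0.54. Of 25 secreted and matricellular proteins and proteases 3 rose and 5 fell. TNC and MMP9 (1.97) were among those that rose, and THBS1 (-0.84), TIMP3 (-0.75), FN1 (-0.61), TIMP2 (-0.53) and LOXL2 (-0.45) fell. Of 30 collagens and laminins COL4A3 fell by 1.55, COL4A4 by 1.29 and COL13A1 by 0.79, while the laminin gene LAMA3 rose by 0.52. Actin filament genes had 3 falls among 29, namely FLNC (-1.51), TPM1 (-1.2) and FSCN1 (-0.64). The calls of THBS1, TIMP3, FN1, COL13A1, LAMA3 and FSCN1 were each lost without at least 1 library, and COL13A1 did not pass against Parental. Such fits are not given here for LTBP1, LTBP2, TGFBI, MMP9, TIMP2 and LOXL2. Of 18 integrin genes ITGA1 fell from 127, 107 and 111 to 51.3, 43.7 and 48.0 CPM, and its neighbour ITGA2 rose from 67.9, 56.3 and 56.9 to 123, 91.5 and 137 CPM, a call lost in 3 of the 6 fits with 1 library left out. The fibroblast marker PDGFRB, a growth factor receptor gene, fell from 3.92, 5.06 and 3.99 to 0.419, 0.444 and 0.528 CPM. It was 1 of only 2 fibroblast markers that could be tested, and the part of other cells in this was not tested.

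NF-kB targets leaned upward. Of 22 tested, 6 rose and 2 fell, all 8 passing without replicate 2, with a median of 0.42. RELB, an NF-kB subunit, was at 15.7, 14.5 and 19.2 CPM against 8.10, 8.59 and 7.92 CPM, and TNFAIP3, a feedback inhibitor, at 4.64, 4.90 and 4.97 CPM against 2.28, 2.61 and 2.39 CPM. NFKB1, NFKB2, CXCL16 and IL32 rose by 0.49, 0.59, 0.59 and 0.94, and LCN2 and SAA1 fell by 1.09 and 1.15. TNFAIP3 lost its call without Control replicate 3, and CXCL16 in 5 of the 6 fits with 1 library left out. Such fits are not given here for NFKB1, NFKB2, IL32 and SAA1. Receptors of the TNF family had 3 rises among 16 tested (TNFRSF9 by 1.63, TNFRSF1B by 0.79 and TNFRSF10A by 0.56). The type I interferon list had 0 calls among 30 genes.

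Intestinal differentiation genes had 3 rises among 16 tested and a median of -0.07, which turned positive at 0.11 without replicate 2. VIL1, the microvillus protein villin, was at 61.6, 56.0 and 56.3 CPM against 26.1, 28.9 and 29.0 CPM, but Parental (45.4 and 40.2 CPM) and shScrambled (53.8 and 56.0 CPM) also lay above Control. CEACAM1 rose by 1.02 and the intestinal master factor CDX2 by 0.64. VIL1 and CDX2 did not pass against Parental, and CDX2 lost its call without Control replicate 1, Control replicate 3 or Ajuba OE replicate 1. Of 13 colon cancer stem cell markers tested ASCL2 and LRIG1 rose, while CD24 fell to 3.63, 2.82 and 2.70 CPM from 12.3, 9.76 and 12.5 CPM and DCLK1 to 196, 163 and 227 CPM from 446, 317 and 340 CPM. The calls of LRIG1 and DCLK1 were each lost without at least 1 library, and LRIG1 did not pass against Parental.

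Lists of growth factor receptors and their signalling held few calls. Of 14 tested genes of the EGFR family and its ligands 1 rose and 1 fell. The same counts held for 16 Eph receptors and ephrins and for 20 ERK output genes. NRG1, a ligand of ERBB receptors, was lower, at 0.0449, 0.0666 and 0.0528 CPM against 1.96, 1.07 and 1.74 CPM, where the Ajuba OE values stand for 3, 3 and 2 counts. EPHB6, a kinase-dead ephrin receptor, rose from 51.0, 61.7 and 51.7 to 164, 208 and 167 CPM, and the ligand gene EFNA5 fell by 1.48. The ETS factor gene ETV1 fell by 1.6. EGFR was at 206, 165 and 241 CPM against 143, 135 and 129 CPM with an adjusted p of 0.0671, but it passed in other fits, among them the one without replicate 2 of both lines (log2 fold change 0.69, against 0.57) and DESeq2. EPHA2 was at 154, 195 and 168 CPM against 169, 216 and 175 CPM with an adjusted p of 0.697. Of 24 Notch genes tested 2 rose, NOTCH1 by 0.87 and HEY2 by 0.49, and 3 fell, DTX4, MAML2 and HES1, by 1.21, 0.68 and 0.55. HEY2 was the call among them that did not pass without replicate 2 of both lines. SEMA5A, SEMA3A (-1.54) and PLXND1 (-0.59) were 3 falls among 25 semaphorins, plexins and neuropilins. HES1 and PLXND1 lost their calls in all 6 fits with 1 library left out, MAML2 in 2 and NOTCH1 in 1. For HES1 Parental (22.5 and 21.0 CPM) and shScrambled (21.9 and 24.1 CPM) also lay below Control (34.0, 29.4 and 28.6 CPM). Ajuba OE held 20.9, 19.9 and 22.8 CPM of HES1, which did not pass against Parental. Of the Ajuba family WTIP was at 21.8, 20.4 and 18.1 CPM against 26.6, 40.0 and 30.6 CPM (adjusted p 0.0475, lost in 5 of the 6 fits with 1 library left out), and LIMD1 at 47.2, 56.9 and 49.1 CPM against 42.8, 52.5 and 45.2 CPM did not pass.

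**Figure D4:**
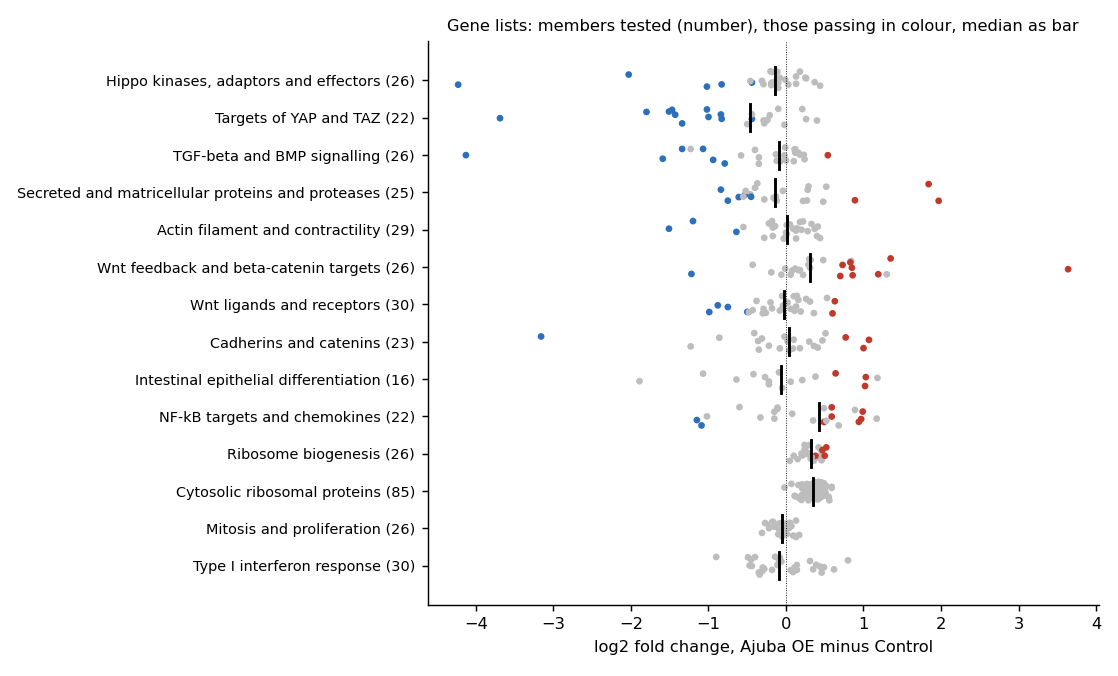
Log2 fold change (Ajuba OE minus Control) of the tested members of 14 gene lists, with members passing in red (higher) or blue (lower), the others in grey and a bar at each list's median. YAP and TAZ targets have 11 falls and no rise, Wnt targets 8 rises and 1 fall, and ribosomal proteins sit above 0 without a call.

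Housekeeping lists are read beside the 5.43% of all genes that passed. The mitosis list had 0 calls among 26 genes with a median of -0.05, and MKI67 was at 628, 635 and 677 CPM against 622, 594 and 647 CPM. The S phase list had 0 among 26 and the glycolysis list 0 among 21. Cytosolic ribosomal protein genes had 0 calls among 85, although 84 had a log2 fold change above 0 and the median was 0.35. These genes vary with the library: RPS6 was at 1110, 350 and 636 CPM in Ajuba OE and 794, 278 and 530 CPM in Control. Ribosome biogenesis genes had 4 rises among 26, NOLC1, RRP9, POLR1B and RRP12, of 0.38 to 0.52 on the log2 scale, with a median of 0.32. All 4 calls were lost in at least 5 of the 6 fits with 1 library left out and against Parental. Cholesterol biosynthesis had 0 calls among 26 with a median of 0.20, and aldehyde dehydrogenases 0 among 15.

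Counts over gene families are read beside the same share, 5.43% of all genes tested (2.39% higher and 3.03% lower). C2H2 zinc finger genes named ZNF had 27 falls and 2 rises among 437 tested, with a median of -0.14. Chromosome 19, which holds many of them, had 60 lower and 19 higher calls among 1473 genes, or 5.36%, close to the share over all genes. Over 268 solute carriers 12 rose and 9 fell, and over 54 potassium channel genes 6 rose and 5 fell, with KCNK10 at 3.41 and KCNQ5 at -3.85. Of 4071 lncRNA genes tested 147 passed (3.61%), 46 higher and 101 lower, against 938 of 14305 protein-coding genes (6.56%), 443 higher and 495 lower. The split moved with level: below 0 average log2 CPM 34 genes rose and 149 fell, and above 6 average log2 CPM 84 rose and 61 fell.

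The knockdown lines were compared with shScrambled, which shares no library with Ajuba OE or Control but serves both knockdown lines. AJUBA was at 49.3, 47.0 and 52.8 CPM in shAjuba1 (log2 fold change -0.73, adjusted p 2.19e-05) and at 57.1, 68.1 and 54.7 CPM in shAjuba2 (log2 fold change -0.46, adjusted p 0.0773, which did not pass). In shAjuba1 8103 of 21082 genes passed (38.4%). Of the Ajuba OE calls 736, or 64.2%, were among them (9.08% of the shAjuba1 calls), 407 in the same and 329 in the opposite direction. In shAjuba2 1713 of 22446 genes passed (7.63%). Of the Ajuba OE calls 350, or 30.5%, were among them (20.4% of the shAjuba2 calls), 71 in the same direction and 279, or 79.7%, in the opposite one. Over all genes tested in both comparisons, whether called or not, 45.5% had opposite signs for shAjuba1 and 56.9% for shAjuba2.

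AMOTL1, which fell in Ajuba OE, rose by 2.10 in shAjuba1 and 2.48 in shAjuba2 on the log2 scale. CDH11 rose by 2.32 and 1.80, ALPK2 by 1.27 and 1.67, OLR1 by 1.28 and 1.85, TMEM52B by 2.51 and 1.86 and LINC02700 by 2.15 and 2.84. In the other direction DEFA5 fell, with log2 fold changes of -4.72 and -2.50, as did NPNT (-3.04 and -2.04), VIL1 (-1.41 and -2.38) and CCND2 (-1.2 and -1.52). SYK rose in Ajuba OE and also by 1.05 and 1.67 in the knockdown lines against shScrambled, CACNA1E by 3.37 and 2.98. shScrambled lay below Parental for both genes. SYK was at 37.1 and 36.5 CPM against 221 and 215 CPM, and CACNA1E at 0.0271 and 0.0395 CPM against 0.226 and 0.415 CPM. The genes above that fell in Ajuba OE and rose in the knockdown lines were also lower in shScrambled than in Parental. AMOTL1 was at 23.4 and 20.6 CPM against 56.3 and 47.3 CPM. Of those that fell in the knockdown lines, CCND2 and VIL1 were higher in shScrambled than in Parental, DEFA5 was lower and NPNT overlapped. The part of the shScrambled level in these changes was not tested. CCN2, lower in Ajuba OE, was lower in both knockdown lines too (-0.98 and -0.56), and CCN1, at -0.02 and 0.10, passed in neither. GREM1, F13A1, ADGRF1 and ITGA1 split between the hairpins, each lower in shAjuba1 and higher in shAjuba2.

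**Figure D5:**
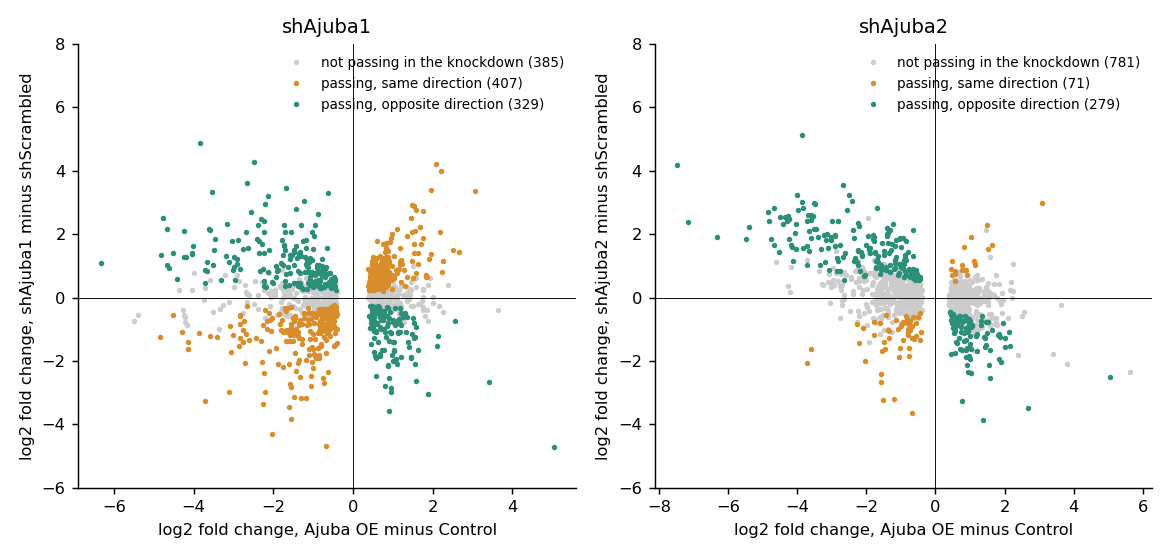
Log2 fold change in Ajuba OE (x axis) against that in shAjuba1 (left) or shAjuba2 (right) minus shScrambled (y axis) for the genes called in Ajuba OE, with grey for genes not passing in the knockdown, orange for the same direction and green for the opposite one. Opposite calls number 329 of 736 for shAjuba1 and 279 of 350 for shAjuba2.

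Some named genes overlap the exons of a neighbour, and without the strand setting of the counting their reads cannot be told apart: FGD5 with FGD5-AS1 (136 CPM on average), TCF7 with SKP1 (312 CPM), CLDN7 with ELP5 (42.5 CPM), VIL1 with USP37 (40.1 CPM), ITGA1 with PELO (27.9 CPM) and PROX1 with PROX1-AS1 (3.83 CPM). PROX1 itself was at 55.5 CPM on average, so the PROX1-AS1 call cannot be told apart from the rise of PROX1. The same limit holds for CXCL16 with MED11 (13.2 CPM) and ZMYND15 (4.4 CPM) and for LRIG1 with SLC25A26 (16.5 CPM). It also holds for ZEB1 with ZEB1-AS1 (5.05 CPM) and TGFB2 with TGFB2-AS1 (1.89 CPM).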

How the data were processed

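RNA of 16 SW480 samples was sequenced in pairs of short reads from a stranded poly(A) kit. The authors aligned reads with HISAT2 to hg38 and counted them per gene with featureCounts, and the deposited values are raw counts of 66023 Ensembl genes. Versions, annotation release and strand setting are not given in the sources used here. GENCODE 44 gave symbols and positions (56434 genes matched). Control and Ajuba OE were compared by edgeR 4.0.16 (R 4.3.3): filterByExpr, TMM scaling, quasi-likelihood test, Benjamini-Hochberg adjusted p under 0.05, 6 samples. The study's own test, DESeq2 1.42.0, was an alternative. CPM were computed from the counts and TMM factors of all 16 libraries. The test was tested on simulated data. Named genes were fixed genes of interest, the 15 per direction with the smallest adjusted p, 5 with the largest fold change (average log2 CPM of at least 2), 3 non-coding, and up to 4 per list, the first sets only where the call held without replicate 2 and groups did not overlap. The 41 lists and 24 families, like the comparison, were chosen with earlier results of these data known. Lists are described by counts and medians. Intervals and tests cover the spread of these libraries only. Some items are not reported here.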

Additional observations from a re-analysis of the deposited data

How the results depend on the processing

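AJUBA kept its direction and its call in every alternative run. The number of calls, 1147 in all with 506 higher and 641 lower, depended on the libraries and the model. DESeq2 gave 1763 (910 higher), a fit to all 16 samples 2386 (1110 higher, 1276 lower), Control, Parental and shScrambled together 1792 (1033 lower), and Parental as control 1042 lower. A log2 fold change of at least 1 left 549 (168 and 381). Leaving out 1 library gave 412 to 988 calls, 141 to 443 higher and 271 to 545 lower. Without replicate 1 of both lines 262 genes passed (67 and 195), 254 of them shared with the main calls in direction. Without replicate 3 of both lines 94 passed (20 and 74), and 94 were shared. Without replicate 2 of both lines 875 were higher. These fits hold fewer samples. The replicate block gave 5140 calls (2983 and 2157), and 5377 in shAjuba2 in place of 1713. Same-numbered libraries had correlated deviations of 0.166, 0.618 and -0.0471, and not every library correlated best with its own number, so numbers were not taken as pairs and the replicate block was not used. Library size alone, DESeq2 size factors, both count filters and thinning kept the total within 1.5 times. The lists were less stable. Of the 41 lists, the summary moved for 25 with Parental as control and for 17 with Control, Parental and shScrambled together. It moved for 13 with library size alone, and for at most 8 in each other run. Of 119 named genes that passed, 76 passed with each single library left out, 63 without replicate 1 of both lines, 41 without replicate 3 of both lines, 118 without replicate 2 of both lines (a condition of the choice for many, and the exception was KRT6A) and 99 against Parental, and none changed sign in any alternative. Depth limits genes near 0 CPM, where a few counts set the value.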
